A study of Mus musculus with 6 samples.

Results

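The genes described here belong to the cellular response to low oxygen. Hif1a, Epas1, Egln1 and Egln3 encode parts of the oxygen-sensing machinery, and Car9, Ndrg1, Bnip3, Ankrd37, Adm and Ero1a are known targets of that machinery outside glycolysis. They were chosen by name with earlier results of these data known, so counts over them are no independent test. All 10 were found among the 21929 genes of the deposited expression table, Ero1a under its older name Ero1l. The RNA came from L929 cells, a mouse fibroblast line, that shared a culture with tumour cells. Per the labels, 3 libraries hold L929 cells that did not interact with the tumour cells (Biotin-), here called Biotin-negative, and 3 hold L929 cells that did (Biotin+), here called Biotin-positive. The labels call the partner of the Biotin-positive cells MFCSTCL without spelling it out. All 6 libraries come from co-culture and carry 1 batch label, and none is labelled as L929 grown alone, so each difference is between 2 fractions of co-cultured cells. How biotin marked the cells, the oxygen level and the cell density are not given in the sources used here. The labels do not say whether a group's libraries are separate cultures, and p-values therefore cover only the spread among these libraries, which may be technical.

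Hypoxia-inducible factors (HIF) are pairs of an oxygen-regulated alpha subunit, encoded by Hif1a or Epas1, and a steady partner subunit, encoded by Arnt. With oxygen present, prolyl hydroxylases of the EGLN family mark the alpha subunit, the VHL ubiquitin ligase binds the mark, and the protein is degraded. Without oxygen the alpha subunit accumulates, pairs with ARNT and binds a short core sequence in its target genes. The alpha subunit is known to be regulated largely as a protein, which RNA-seq does not measure. Egln3 and Egln1 are themselves HIF targets, which closes a feedback loop.

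The values are FPKM, in which fragments are scaled to the length of the gene and the size of the library, and the sequencing depth behind them is unknown. Per library 10724 to 10862 genes had 1 FPKM or more. Of 15 epithelial markers, 13 stayed under 1 FPKM in every library and 2 rose, the keratins Krt7 and Krt8. The summed level of the 15 markers was 0.704 to 0.798 FPKM in Biotin-negative and 45.2 to 47.7 FPKM in Biotin-positive libraries. Epcam was at or below 0.0231 FPKM and Cdh1 at or below 0.0227 FPKM throughout, and Krt20 was listed at 0 in all 6 libraries. Of 12 fibroblast markers 8 reached testing, of which 5 fell and 3 rose, while Thy1, Dcn, Lum and Fap stayed under 1 FPKM. The collagen genes fell, Col3a1 from 208 ± 5.94 to 58.2 ± 0.943 FPKM, Col1a2 from 370.0 ± 9.59 to 179.9 ± 1.82 FPKM and Col1a1 from 167 ± 7.24 to 90.3 ± 2.76 FPKM, and so did the receptor genes Pdgfra and Pdgfrb. Vim rose from 658 ± 14.04 to 1418 ± 43.5 FPKM and S100a4 from 539 ± 15.7 to 722 ± 37.7 FPKM, and Twist1 was listed at 0 in the Biotin-negative libraries and at 5.92 to 6.78 FPKM in the others. Of 10 immune and endothelial markers 2 reached testing, and the summed level was 8.02 to 9.65 and 9.35 to 11.0 FPKM. Cd79a rose from 0.106 ± 0.0462 to 2.32 ± 0.453 FPKM, and Cd68 passed as lower with overlapping groups, at 8.59 ± 0.864 and 7.13 ± 0.805 FPKM (limma adjusted p = 0.0402). The Cd68 call was lost without any of 4 single libraries (Biotin-negative replicates 1 and 3, Biotin-positive replicates 2 and 3, limma adjusted p = 0.0543 to 0.136), without a filter on low values (0.0833) and with the replicate number as a block (0.0663). The part of other cells in the results was not tested. In bulk RNA, fewer cells that express a gene and less of its RNA per cell cannot be told apart.

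Values are given in FPKM, with the mean ± SD over n = 3 libraries per group and the Biotin-negative group named before the other. A log2 difference is the Biotin-positive minus the Biotin-negative mean of log2(FPKM + 1), a scale on which changes of low genes come out too small. A gene rose or fell where limma's test over 11029 genes found it higher or lower in Biotin-positive than in Biotin-negative libraries at an adjusted p under 0.05. Of the 10 genes, 9 reached the 1 FPKM in 3 libraries that testing needed. Among these 9, 7 fell (Car9, Ndrg1, Ankrd37, Egln3, Ero1a, Hif1a and Adm) and 2 rose (Bnip3 and Egln1). Among all tested genes 36.1% were lower and 37.8% higher, and 73.9% passed in either direction, so that a passing gene is the usual case here. The library values of the groups did not overlap for any of the 9 genes, against 76.9% of all tested genes. The median log2 difference of the 9 genes was -0.72, against 0.01 over all tested genes. A fall of at least 0.5 on the log2 scale was passed by 14.6% of all tested genes, and Car9, Ndrg1, Ankrd37, Egln3 and Ero1a were among them. A rise of that size was passed by 15.8% of all tested genes, and by 0 of these 9.

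**Figure D1:**
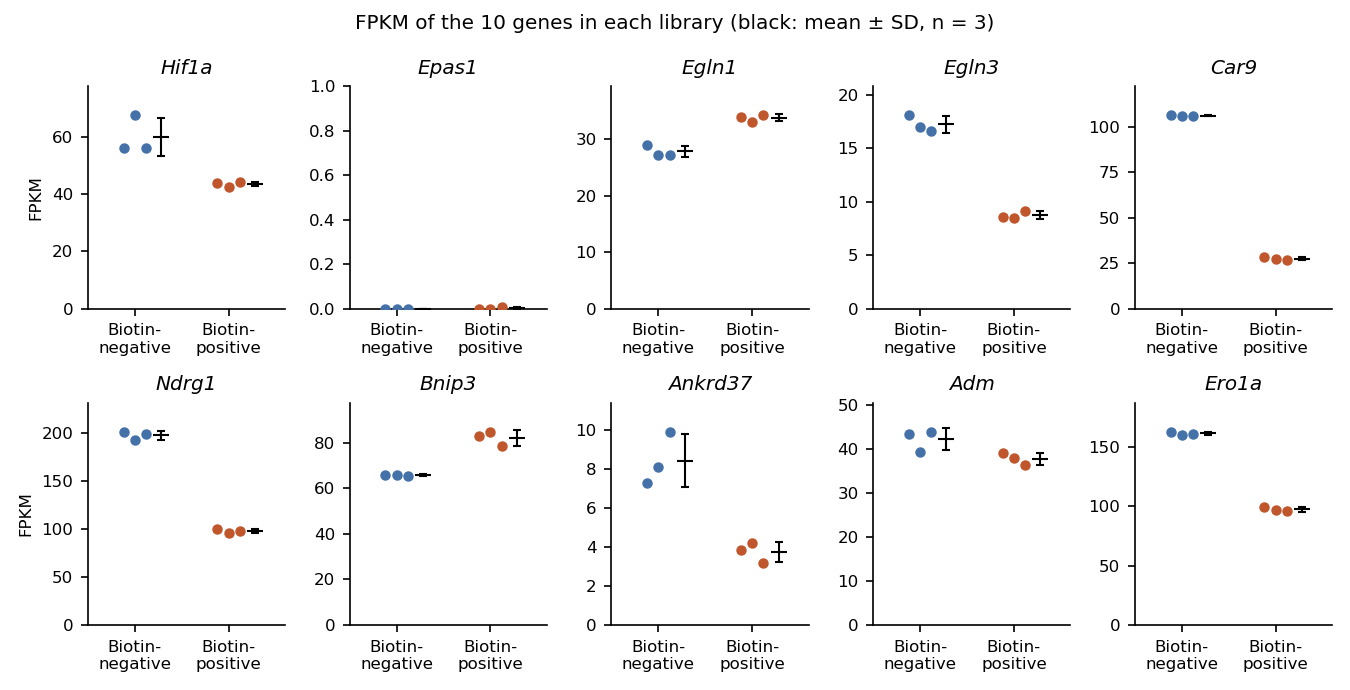
FPKM of each of the 10 genes (vertical axes from 0, 1 scale per gene) in the 3 Biotin-negative (blue) and 3 Biotin-positive (orange) libraries, with the mean ± SD in black. Car9 stood near 106 FPKM in the former and near 27.4 FPKM in the latter, Egln1 and Bnip3 were higher in the latter, and Epas1 was at the floor of its axis in all 6.

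Of the alpha subunit genes only Hif1a reached testing, and it was lower in Biotin-positive cells. Hif1a (GRCm38 chromosome 12, 73901375 to 73947530, ENSMUSG00000021109) was at 56.4, 67.8 and 56.3 FPKM (Biotin-negative) and at 44.0, 42.7 and 44.2 FPKM (Biotin-positive). The Biotin-negative replicate 2 was the highest of the 6, and the groups did not overlap. The level fell from 60.2 ± 6.64 to 43.7 ± 0.852 FPKM, a ratio of 0.726 (log2 difference -0.45, SE 0.068, limma adjusted p = 0.000349). Without that replicate the log2 difference was -0.36 (limma adjusted p = 4.51e-05). Epas1 (GRCm38 chromosome 17, 86753700 to 86833410, ENSMUSG00000024140), which encodes HIF-2α, was listed at 0 in 5 libraries and at 0.00635 FPKM in Biotin-positive replicate 3. It did not reach testing, and no ratio of Epas1 to Hif1a was taken. A listed 0 need not be a measured absence, since the sequencing depth is unknown. Gapdh, a glycolytic enzyme of every cell with many processed pseudogenes, was listed at only 6.15 to 37.9 FPKM here, so its level is uncertain. For Epas1, 0.0% of the transcript had near-identical sequence in other annotated genes. The same search was not run for Gapdh, and what lies behind the low listing of either gene was not tested. A further annotated gene, Gm49321, overlaps 9878 bases of Hif1a on the same strand and was listed at 0 in all 6 libraries, and the antisense gene Gm15283, without a value here, spans all 46156 bases of Hif1a.

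The prolyl hydroxylases went opposite ways. Egln1 (PHD2, GRCm38 chromosome 8, 124908587 to 124949324, ENSMUSG00000031987), the main oxygen sensor in most cells, was at 29.1, 27.3 and 27.3 FPKM (Biotin-negative) and at 34.0, 33.1 and 34.3 FPKM (Biotin-positive). It rose from 27.9 ± 1.02 to 33.8 ± 0.604 FPKM, a ratio of 1.21 (log2 difference 0.27, SE 0.0378, limma adjusted p = 0.000215). Egln3 (PHD3, GRCm38 chromosome 12, 54178981 to 54203860, ENSMUSG00000035105), the paralog known as the more strongly hypoxia-inducible, was at 18.1, 17.0 and 16.6 FPKM (Biotin-negative) and at 8.59, 8.52 and 9.14 FPKM (Biotin-positive). It fell from 17.2 ± 0.787 to 8.75 ± 0.341 FPKM, a ratio of 0.507 (log2 difference -0.90, SE 0.0504, limma adjusted p = 6.62e-07). Neither gene's groups overlapped. Within a library the ratio of Egln3 to Egln1 does not depend on library scaling. It was 0.624, 0.623 and 0.608 in the Biotin-negative and 0.253, 0.257 and 0.266 in the Biotin-positive libraries, a log2 difference of -1.26. The exact two-sided permutation test gave p = 0.1, the smallest value that 3 against 3 libraries allow. Egln2 (PHD1), the remaining family member, did not pass, at 19.9 ± 0.558 and 18.7 ± 1.01 FPKM (limma adjusted p = 0.129).

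Carbonic anhydrase IX, encoded by Car9 (GRCm38 chromosome 4, 43506966 to 43513729, ENSMUSG00000028463), is a membrane enzyme that hydrates CO2 outside the cell and is widely used as a hypoxia marker. Car9 was at 107, 106 and 106 FPKM (Biotin-negative) and at 28.3, 27.3 and 26.5 FPKM (Biotin-positive). The libraries of a group lay close together, and the gap between the groups was far wider than either spread. The level fell from 106 ± 0.253 to 27.4 ± 0.915 FPKM, a 3.88-fold lower level (log2 difference -1.92, SE 0.033, limma adjusted p = 1.6e-09), and it ranked 42 of 11029 tested genes counted from the most negative log2 difference. Of 15 other carbonic anhydrase genes, 4 reached testing, 2 of them fell and 2 rose. Over all tested genes 36.1% fell and 37.8% rose. Car6, a secreted form, fell from 86.4 ± 2.38 to 42.9 ± 1.86 FPKM, and Car11, a relative without catalytic activity, fell from 9.85 ± 0.675 to 4.23 ± 0.145 FPKM. The mitochondrial Car5b rose from 8.35 ± 0.678 to 12.3 ± 0.258 FPKM and the cytosolic Car13 from 21.6 ± 0.942 to 28.2 ± 1.27 FPKM. Car12, the other membrane-bound family member known as a HIF target, was at or below 0.0232 FPKM in every library.

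Ndrg1 (GRCm38 chromosome 15, 66929318 to 66969640, ENSMUSG00000005125), a stress-responsive gene induced by hypoxia and other stresses, had the highest level of the 10 genes in Biotin-negative cells. It was at 202, 193 and 199 FPKM (Biotin-negative) and at 100.3, 96.2 and 98.4 FPKM (Biotin-positive). It fell from 198 ± 4.75 to 98.3 ± 2.05 FPKM, a ratio of 0.497 (log2 difference -1.0, SE 0.0307, limma adjusted p = 2.68e-08), and the groups did not overlap. Of its relatives, Ndrg3 fell from 37.3 ± 0.797 to 23.3 ± 0.412 FPKM, Ndrg4 did not pass, at 5.44 ± 0.166 and 5.71 ± 0.259 FPKM, and Ndrg2 was under 1 FPKM.

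Ero1a (GRCm38 chromosome 14, 45283087 to 45318771, ENSMUSG00000021831) encodes an oxidase that passes electrons from protein disulfide isomerase to oxygen in the endoplasmic reticulum. It was at 163, 160.3 and 161 FPKM (Biotin-negative) and at 99.9, 96.6 and 95.8 FPKM (Biotin-positive). It fell from 162 ± 1.42 to 97.4 ± 2.15 FPKM, a ratio of 0.603 (log2 difference -0.72, SE 0.0282, limma adjusted p = 9.02e-08). The other genes of oxidative protein folding were measured beside it. Of 13, 9 fell, 2 rose (Prdx4 and Gpx8) and 2 did not pass (Qsox2 and Gpx7), with a median log2 difference of -0.34. Over all tested genes 36.1% fell and 37.8% rose. The paralog Ero1b, which is not known for induction by hypoxia, fell from 14.8 ± 0.813 to 6.26 ± 0.416 FPKM, so both oxidase genes were lower. Qsox1, a sulfhydryl oxidase, fell from 77.3 ± 2.02 to 45.8 ± 1.12 FPKM, and the isomerase-family genes Pdia4 and Txndc5 fell from 423 ± 5.16 to 269.7 ± 3.00 FPKM and from 214 ± 2.80 to 148 ± 1.88 FPKM. The rise of the peroxidase gene Prdx4 (log2 difference 0.19) did not pass after quantile normalization (0.04, limma adjusted p = 0.323), and Qsox2 passed as lower without Biotin-negative replicate 3 (limma adjusted p = 0.0408).

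Ankrd37 (GRCm38 chromosome 8, 45996902 to 46005707, ENSMUSG00000050914), a small ankyrin-repeat protein gene known as a direct HIF-1 target, was the lowest of the tested members. It was at 7.25, 8.10 and 9.90 FPKM (Biotin-negative) and at 3.86, 4.18 and 3.17 FPKM (Biotin-positive). The Biotin-negative libraries spread more widely than those of the other falling genes relative to their mean, but all of them lay above the Biotin-positive ones. The level fell from 8.42 ± 1.35 to 3.74 ± 0.519 FPKM, a ratio of 0.444 (log2 difference -0.99, SE 0.115, limma adjusted p = 6.67e-05). On the opposite strand Lrp2bp overlaps 6405 bases of its span, with 0.0333 to 0.348 FPKM, and Ufsp2 overlaps 57 bases, with 33.4 to 36.6 FPKM. The use of strand in the counting is not stated, so reads of genes on opposite strands cannot be told apart. That holds as well for opposite-strand genes without a value here, which overlap all 2160 bases of Adm (Gm28863), 1782 of Car9 (Gm12454), 3712 and 852 of Bnip3 (Gm45507 and Gm18258) and 1501 and 318 of Ndrg1 (Gm17035 and Gm2895).

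Adrenomedullin, encoded by Adm (GRCm38 chromosome 7, 110627661 to 110629820, ENSMUSG00000030790), changed least among the genes that fell. Adm was at 43.4, 39.3 and 43.9 FPKM (Biotin-negative) and at 39.1, 37.9 and 36.3 FPKM (Biotin-positive). The groups did not overlap, but the lowest Biotin-negative and the highest Biotin-positive library were close. The level fell from 42.2 ± 2.50 to 37.8 ± 1.39 FPKM, a ratio of 0.894 (log2 difference -0.16, SE 0.0492, limma adjusted p = 0.0189). Leaving out Biotin-negative replicate 1, Biotin-negative replicate 3 or Biotin-positive replicate 3 ended this call (limma adjusted p = 0.0614, 0.0672 and 0.0701). Of 7 other genes of adrenomedullin peptides and receptors, 3 reached testing and 3 fell, each by a larger log2 difference than Adm. Among all tested genes 36.1% were lower. Calca, Ramp1, Ramp2 and Ramp3 did not reach testing. Of these, Ramp3 went the other way, listed at 0 in the Biotin-negative and at 0.519 to 0.814 FPKM in the Biotin-positive libraries. Adm2, the related peptide intermedin, fell from 21.3 ± 0.595 to 8.28 ± 0.428 FPKM (log2 difference -1.27). Calcrl, which encodes the receptor core, fell from 6.59 ± 0.785 to 2.24 ± 0.0335 FPKM (-1.22), and Ackr3, a scavenger receptor that also binds adrenomedullin, fell from 5.03 ± 0.496 to 1.78 ± 0.209 FPKM (-1.12).

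Bnip3 (GRCm38 chromosome 7, 138890836 to 138909519, ENSMUSG00000078566) encodes an outer-membrane receptor that recruits the autophagy machinery to mitochondria, and it was the only one of the 6 targets that rose. It was at 66.0, 66.0 and 65.5 FPKM (Biotin-negative) and at 83.0, 84.9 and 78.3 FPKM (Biotin-positive). It rose from 65.8 ± 0.300 to 82.1 ± 3.36 FPKM, a ratio of 1.25 (log2 difference 0.31, SE 0.0353, limma adjusted p = 5.43e-05), and the groups did not overlap. After quantile normalization the log2 difference was 0.19 (limma adjusted p = 0.000767). Near-identical sequence in 4 other annotated genes covers 68.6% of its transcript, so its level is uncertain. For the other 9 genes this share was at most 16.4%. Its paralog Bnip3l (NIX), also a HIF target, did not pass, at 37.1 ± 0.963 and 36.8 ± 0.488 FPKM (limma adjusted p = 0.788). Of 10 genes of mitophagy receptors and the PINK1-Parkin route, Bnip3l included, 8 reached testing, with 3 higher, 3 lower and 2 not passing. The shares over all tested genes were 37.8% higher and 36.1% lower. Phb2 rose from 82.8 ± 5.34 to 122 ± 0.788 FPKM, Bcl2l13 from 3.32 ± 0.0722 to 4.89 ± 0.174 FPKM and Optn from 16.6 ± 0.683 to 18.5 ± 0.538 FPKM. The kinase gene Pink1 fell from 23.9 ± 1.55 to 12.6 ± 0.199 FPKM, Sqstm1 from 383 ± 8.34 to 321 ± 7.79 FPKM and Fundc1 from 15.6 ± 2.94 to 12.3 ± 0.214 FPKM. Fundc1 was highest in Biotin-negative replicate 2 (19.0 FPKM) and lost its call without any 1 of the Biotin-positive replicates (limma adjusted p = 0.0575, 0.0669 and 0.0564) and without a filter on low values (0.0612), and its log2 difference of -0.31 was -0.17 without that Biotin-negative replicate. Optn lost its call without Biotin-positive replicate 2 (0.0513). Fkbp8 did not pass, at 104 ± 1.96 and 106 ± 2.98 FPKM, but was called lower after quantile normalization (log2 difference -0.11, limma adjusted p = 0.00626).

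**Figure D2:**
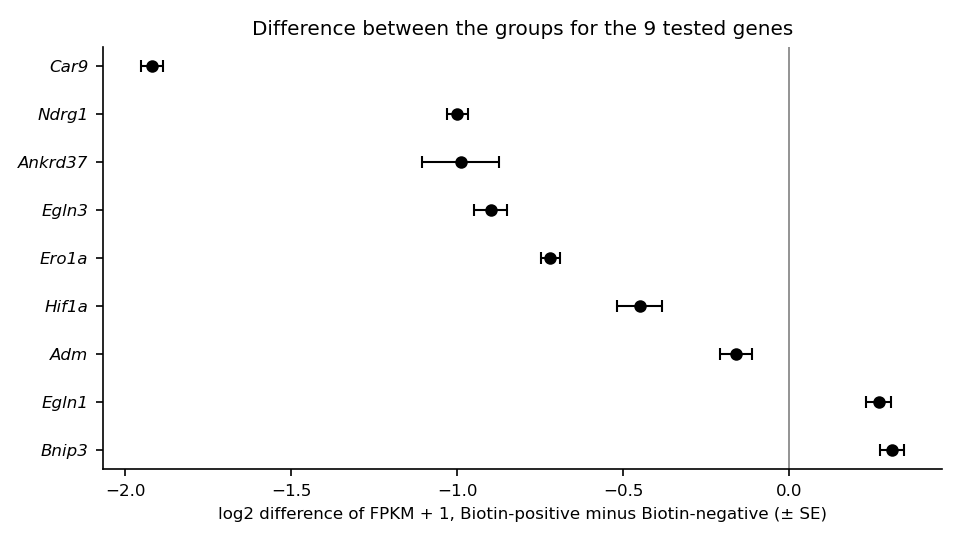
Log2 difference (horizontal axis, log2 of FPKM + 1, Biotin-positive minus Biotin-negative, bars ± SE from limma) for the 9 tested genes. Car9 lies farthest from 0 at -1.92, Ndrg1, Ankrd37 and Egln3 lie between -1.0 and -0.90, and Egln1 and Bnip3 lie on the positive side at 0.27 and 0.31.

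FPKM is scaled to gene length, so levels can be set side by side between genes, but with limits. The level of Bnip3 is uncertain for the shared sequence given above. How FPKM was computed and whether strand was used are not stated, so the order is that of the listed values. In Biotin-negative cells the order of mean FPKM was Ndrg1, Ero1a, Car9, Bnip3, Hif1a, Adm, Egln1, Egln3, Ankrd37 and Epas1, and only the neighbours Bnip3 and Hif1a overlapped in their library values. In Biotin-positive cells Ndrg1 and Ero1a overlapped (98.3 and 97.4 FPKM). Car9 moved from the third place, with a level above 95.9% of tested genes, to the seventh, at 76.7%. Bnip3, Hif1a, Adm and Egln1 passed Car9 in the order, Hif1a and Adm although they fell as well.

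Upstream sequences are shown for Car9 and Ankrd37, the genes with the lowest ratios between the groups, and for Egln1 and Bnip3, which rose. Each is the 250 bases before the annotated start in RefSeq (build GRCm38.p6), with matches to the HIF-binding core in capitals. The core was searched as ACGTG and GCGTG on both strands, and overlapping matches were joined.

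Car9 (chr4:43506776-43507025, plus strand): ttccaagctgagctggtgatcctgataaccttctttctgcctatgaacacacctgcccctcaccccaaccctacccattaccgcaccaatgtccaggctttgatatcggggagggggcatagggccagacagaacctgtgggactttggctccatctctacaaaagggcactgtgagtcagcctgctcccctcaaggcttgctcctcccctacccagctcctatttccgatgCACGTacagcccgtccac

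Ankrd37 (chr8:45999851-46000100, minus strand): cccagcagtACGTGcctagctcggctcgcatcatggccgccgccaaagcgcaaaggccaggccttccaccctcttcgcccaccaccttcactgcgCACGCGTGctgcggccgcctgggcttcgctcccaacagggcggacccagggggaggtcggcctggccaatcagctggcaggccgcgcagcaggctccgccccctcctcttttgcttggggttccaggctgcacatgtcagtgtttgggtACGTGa

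Egln1 (chr8:124949255-124949504, minus strand): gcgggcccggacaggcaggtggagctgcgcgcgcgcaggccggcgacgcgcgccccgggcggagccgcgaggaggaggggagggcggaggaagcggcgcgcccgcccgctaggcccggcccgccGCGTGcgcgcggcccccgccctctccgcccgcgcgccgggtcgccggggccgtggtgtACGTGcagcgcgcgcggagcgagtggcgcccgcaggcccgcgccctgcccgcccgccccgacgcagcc

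Bnip3 (chr7:138909507-138909756, minus strand): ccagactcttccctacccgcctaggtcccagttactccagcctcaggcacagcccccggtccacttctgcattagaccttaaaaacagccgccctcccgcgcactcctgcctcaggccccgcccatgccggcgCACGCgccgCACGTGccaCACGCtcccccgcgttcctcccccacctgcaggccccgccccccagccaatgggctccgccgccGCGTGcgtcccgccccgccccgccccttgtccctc

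Car9 holds 1 core, 18 to 14 bases before the start, on the opposite strand. Ankrd37 holds 3, at 241 to 237, 155 to 148 and 6 to 2 bases before the start. The run in the middle is read from overlapping matches on both strands. Egln1 holds 2 cores and Bnip3 4, one of the latter the palindrome CACGTG. RefSeq windows were matched for 8 of the 10 genes, Car9, Adm, Bnip3, Ankrd37, Egln1, Egln3, Hif1a and Ero1a. A core was found in 8 of these 8 windows and at least 2 separate cores in 6, while 58.4% of the 8810 windows of tested genes held 1 or more and 25.3% held 2 or more. Of all 32851 windows, 38.6% held a core. The 6 genes with a window that fell held 1 to 3 cores, and the 2 that rose held 2 and 4. With only 2 genes that rose, whether the number of cores goes with the direction cannot be told. These matches are a description of letters and no evidence of binding. Of the 8 RefSeq starts, 6 lie inside the span that the expression table gives for the gene. For Hif1a and Ankrd37 they lie 6492 and 5857 bases inside, so the whole window does. For Car9, Bnip3, Egln1 and Ero1a they lie 60, 13, 70 and 199 bases inside, and the core of Car9 is thus within the Car9 span of the table. The starts of Adm and Egln3 lie 4 and 14 bases outside.

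The remaining subunits and regulators of the pathway came from a list of 20 genes, of which 18 reached testing, with 8 higher, 6 lower, 4 not passing and a median log2 difference of 0.12. For comparison, 37.8% of all tested genes were higher, 36.1% were lower and 73.9% passed in either direction. Arnt, the partner subunit, fell from 27.6 ± 1.80 to 19.1 ± 1.66 FPKM (log2 difference -0.51, limma adjusted p = 0.000164), so that both tested HIF subunit genes were lower. Hif3a and Arnt2 were under 1 FPKM in every library. The VHL ubiquitin ligase genes were higher where they passed. Vhl itself rose from 8.48 ± 0.290 to 10.1 ± 0.136 FPKM, the elongin gene Elob from 154 ± 1.38 to 199 ± 6.99 FPKM and the RING subunit gene Rbx1 from 28.1 ± 2.08 to 43.4 ± 1.17 FPKM. Cul2, the scaffold, did not pass, at 10.9 ± 0.453 and 11.1 ± 0.862 FPKM. Eloc did not pass, at 33.3 ± 8.27 and 41.8 ± 2.67 FPKM (limma adjusted p = 0.0531). Its Biotin-negative replicate 2, at 42.9 FPKM, was far above the others of its group, and without it the log2 difference was 0.53 (limma adjusted p = 6.86e-05). It also passed with a minimum of 5 FPKM (0.0482) and with the replicate number as a block (0.0132). After quantile normalization the log2 difference of Elob was 0.22, against 0.37.

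Regulators that act on the hydroxylases or on the alpha subunit were split. Siah1a and Siah2, ubiquitin ligases that degrade EGLN proteins, fell from 13.2 ± 0.900 to 10.1 ± 0.393 FPKM and from 11.7 ± 0.219 to 10.0 ± 0.618 FPKM. P4htm, a transmembrane prolyl hydroxylase, fell from 1.57 ± 0.268 to 0.510 ± 0.140 FPKM (log2 difference -0.77, and -1.47 with a pseudocount of 0.1). Hif1an, the asparaginyl hydroxylase that blocks coactivator binding, did not pass, at 5.49 ± 0.371 and 5.93 ± 0.186 FPKM. Usp20, a deubiquitinase that stabilises HIF-1α, rose from 10.8 ± 0.335 to 14.5 ± 0.618 FPKM. The chaperone genes Hsp90aa1 and Hsp90ab1, whose products protect HIF-1α, rose too, Hsp90aa1 from 122 ± 0.199 to 288 ± 10.7 FPKM and Hsp90ab1 from 625 ± 17.1 to 894 ± 26.8 FPKM. Rack1, which competes with that chaperone on HIF-1α, fell from 619 ± 8.13 to 579 ± 10.1 FPKM, a call lost without the trend in limma's prior (adjusted p = 0.0501). Its log2 difference of -0.10 was -0.25 after quantile normalization.

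The coactivator genes and their competitor moved both ways. Cited2, a HIF target whose product competes with HIF-1α for the coactivators CBP and p300, rose from 35.9 ± 1.07 to 53.9 ± 1.63 FPKM (log2 difference 0.57, limma adjusted p = 1.67e-06). Crebbp, which encodes CBP, fell from 3.40 ± 0.0937 to 2.29 ± 0.174 FPKM. Ep300, which encodes p300, was higher at 6.01 ± 0.104 and 6.80 ± 0.356 FPKM (limma adjusted p = 0.0313), but this call was lost without Biotin-negative replicate 1 or 3, without Biotin-positive replicate 2 or 3 (adjusted p = 0.0555 to 0.107) and with the replicate number as a block (0.0547).

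**Figure D3:**
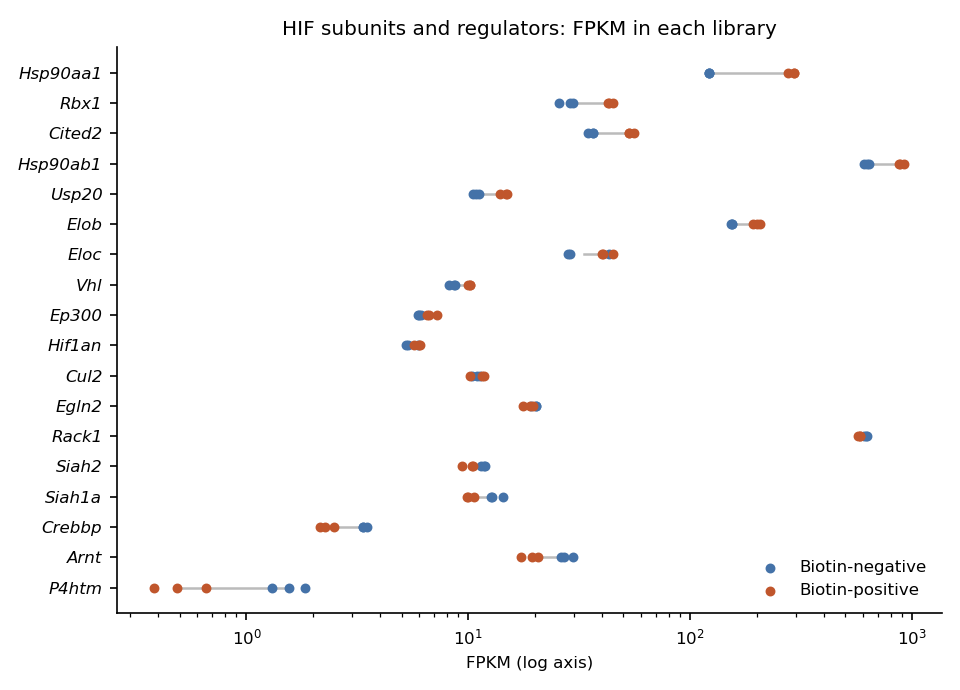
FPKM (logarithmic horizontal axis) of the 18 tested HIF subunits and regulators in each Biotin-negative (blue) and Biotin-positive (orange) library, with a grey line between the group means, ordered by log2 difference. Hsp90aa1 has the widest rise, from near 122 to near 288 FPKM, and P4htm the widest fall, from near 1.57 to near 0.510 FPKM.

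Other HIF targets outside glycolysis moved both ways. Of 43 such genes 33 reached testing, with 21 lower, 10 higher and 2 not passing (Bnip3l and Gys1), and a median log2 difference of -0.22. Over all tested genes the shares were 36.1% lower and 37.8% higher. Among the genes that rose, Tfrc, the transferrin receptor, rose from 11.6 ± 1.07 to 40.4 ± 0.184 FPKM (log2 difference 1.72), Ier3, an early stress-response gene, from 30.0 ± 0.563 to 89.8 ± 2.34 FPKM, and Nos2, the inducible nitric oxide synthase, from 2.79 ± 0.292 to 9.0 ± 0.476 FPKM. Among the genes that fell, of which all but Angptl4 were named after their values were seen, Angptl4, a lipoprotein lipase inhibitor, fell from 12.2 ± 0.619 to 4.61 ± 1.55 FPKM, and Ndufa4l2, a mitochondrial protein gene known for strong induction by HIF-1, from 50.5 ± 0.824 to 20.9 ± 1.58 FPKM. Plod1, a collagen lysyl hydroxylase, fell from 20.2 ± 3.61 to 9.16 ± 1.54 FPKM, and Vegfa, the vascular growth factor, from 161 ± 3.76 to 86.8 ± 3.39 FPKM. Ier3 and Nos2 are known to answer to signals other than oxygen as well. The signals behind the rises and the falls on this list were not tested.

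The glycolytic HIF targets, which are no members of the set, are given for contrast. Of 20, 18 reached testing, with 12 higher, 3 lower (Aldoc, Slc2a1 and Pfkl) and 3 not passing (Hk2, Pfkfb4 and Aldoa), and a median log2 difference of 0.20. The shares over all tested genes were 37.8% higher and 36.1% lower. Aldoa passed as lower after quantile normalization (limma adjusted p = 0.00396). The symbol Aldoa had 2 entries, and only the one with the higher mean is given here. Ldha, lactate dehydrogenase A, rose from 397 ± 8.50 to 769 ± 15.3 FPKM and Pgk1, phosphoglycerate kinase, from 243 ± 4.91 to 451 ± 10.3 FPKM, while Aldoc, an aldolase, fell from 9.01 ± 0.209 to 4.70 ± 0.172 FPKM. Slc2a1, the glucose transporter, fell from 37.8 ± 1.87 to 25.2 ± 0.876 FPKM and Pfkl, a phosphofructokinase, from 61.9 ± 2.79 to 41.1 ± 0.145 FPKM. Gapdh was higher at 9.07 ± 2.77 and 23.2 ± 13.8 FPKM, but its groups overlapped, its level is uncertain for the reason given above, and its call was lost without a filter on low values and without any of 4 single libraries (Biotin-negative replicates 1 and 2, Biotin-positive replicates 2 and 3, limma adjusted p = 0.0541 to 0.101). Without Biotin-positive replicate 3 its log2 difference was 0.70, against 1.13. The Biotin-positive cells held less Car9, Egln3, Ndrg1, Ankrd37 and Ero1a RNA in the same libraries in which Ldha and Pgk1 RNA was higher. Near-identical sequence in other genes was not searched for Ldha, Pgk1 or the other glycolytic genes. Neither list moved in a single direction, as the members Bnip3 and Egln1 rose and the glycolytic Aldoc, Slc2a1 and Pfkl fell. The difference between the lists was not tested. The keratin genes Krt7 and Krt8 and the fibroblast marker Vim were higher and the collagen markers lower in those libraries, and their part in these results was not tested.

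**Figure D4:**
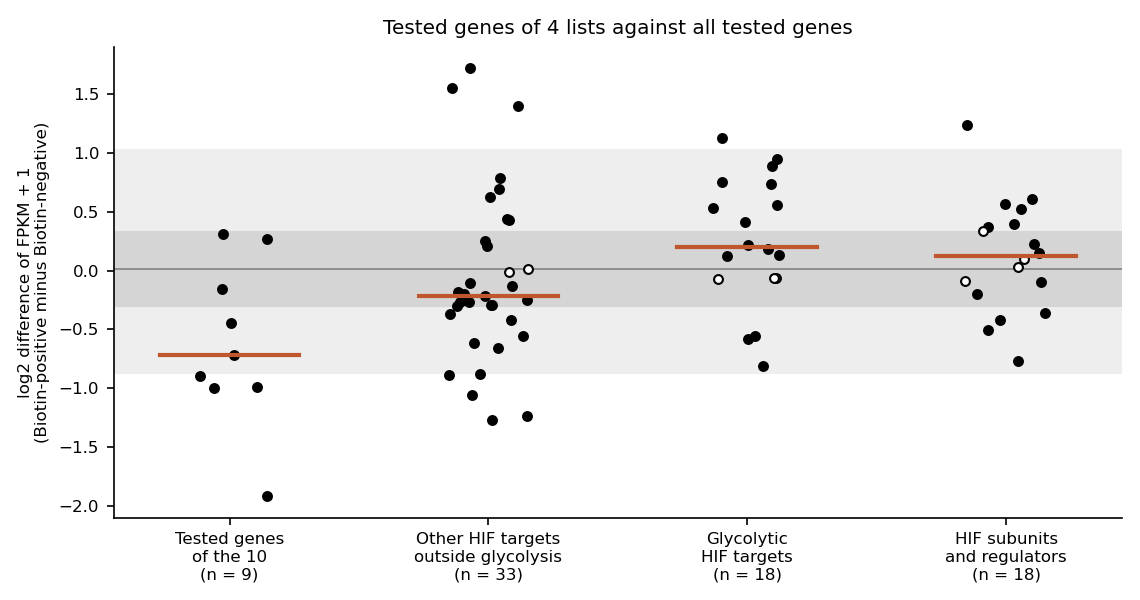
Log2 differences (vertical axis, log2 of FPKM + 1, Biotin-positive minus Biotin-negative) of the tested genes in 4 lists, filled where they passed and open where they did not, with the list median in orange. The dark and light bands hold the middle 50% and 90% of all tested genes, and the medians are -0.72 for the 9 tested of the 10 genes, -0.22 for other targets outside glycolysis, 0.20 for glycolytic targets and 0.12 for subunits and regulators.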

How the data were processed

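RNA-seq of 6 libraries was used. The deposited values are FPKM, made by the authors, 1 column per library. Per the submitters' processing notes the tools were cutadapt 1.9.1, HISAT2 2.2.1 and HTSeq 0.6.1, with the build GRCm39. The step that gave FPKM, its denominator and the strand setting are not given in the sources used here. The gene coordinates in the table are those of GRCm38: of 21887 identifiers shared with GENCODE vM21 on that build, 21687 (99.1%) had the same chromosome, start and end. They are printed as GRCm38. Ratios of low genes between libraries showed no common step (at most 2.07% of them fell in 1 window 0.5% wide), so reads could not be recovered and no interval that needs depth is given.

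Values were taken as log2(FPKM + 1), that is, with a pseudocount of 1. A gene was tested if 3 of the 6 libraries reached 1 FPKM, which 11029 genes did. The test was limma 3.58.1 under R 4.3.3 (lmFit, then trended eBayes, two-sided). P-values were adjusted by Benjamini-Hochberg over these 11029 genes, with a threshold of 0.05. The procedure was tested on simulated data. For the ratio of Egln3 to Egln1, scipy 1.17.1 gave the exact permutation p. The members and the gene lists were chosen with earlier results of these data known. A gene of the list of other HIF targets and one of the epithelial markers were left out of their lists and are not reported here. Named genes were the members, every tested gene of the regulator and family lists, and of the other lists the 4 passing genes with the largest change and at least 5 FPKM in the higher group, while genes named only because a count was 5 or fewer were chosen after their values were seen. Near-identical sequence was searched for the 10 genes only, with blastn 2.17.0 between GENCODE vM21 transcripts (at least 100 bases and 98% identity).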

Additional observations from a re-analysis of the deposited data

How the results depend on the processing

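The values of the 10 genes were recomputed with pseudocounts of 0.1 and 0.5, without a filter on low values, with a minimum of 5 FPKM, with scaling by the median of ratios, with quantile normalization, without a trend, with a replicate block and without each library in turn. Of 126 such values for the 9 tested genes, 123 kept their direction and their side of the threshold, and the 3 exceptions are those of Adm given above. The number of members that rose was 2 in each setting, and the number that fell was 7, or 6 where Adm lost its call. No count of the other 3 HIF lists or of all genes moved by more than 1.5 times. The labels do not say that equal replicate numbers belong together, and libraries of the same number did not deviate together (correlation across genes 0.0371, 0.012 and 0.0143). With the replicate block 2 members rose and 7 fell. The log2 difference of the Egln3 to Egln1 ratio was -1.26, and the ratio of Epas1 to Hif1a could not be computed because Epas1 was listed at 0.

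Among 72 further named genes, 967 of 1003 values kept direction and side. Reversals touched genes that had not passed. Fkbp8 became lower after quantile normalization (-0.113, limma adjusted p = 0.00626). Over the settings that leave out 1 library, Gys1 ranged from -0.014 to 0.053, Cul2 from -0.010 to 0.088, Bnip3l from -0.029 to 0.007 and Pfkfb4 from -0.226 to 0.051, and after quantile normalization Gys1 was at -0.006. Quantile normalization moved Rack1 to -0.25 and Aldoa to -0.19, the latter then passing, and a pseudocount of 0.1 moved P4htm from -0.77 to -1.47. For these changes the cause was not tested. Depth is unknown, which limits what can be said of genes listed near 0, Epas1 among them.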
